A study of Mus musculus with 2 samples.

Results

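The 10 genes described here encode the 5 subunits of the transcription factor NF-κB (*Nfkb1*, *Nfkb2*, *Rela*, *Relb* and *Rel*) and 5 proteins grouped here as its inhibitors (*Nfkbia*, *Nfkbib*, *Nfkbie*, *Nfkbiz* and *Tnfaip3*). They were chosen by gene symbol, and all 10 were found among the 23183 genes of the deposited tables. mRNA of mouse lung cancer cells was sequenced as 1 library of KPR- cells and 1 library of KPRrestored cells, so no difference between them has a replicate check. KPR- is an immortalized line that was derived from KPRL/F-TAM(-) mouse lung cancer. Both libraries share its alleles, which are a Cre-activated oncogenic *K-Ras* allele, floxed *p53* that Cre deletes, *Runx3* with 1 floxed copy that Cre inactivates and 1 copy silenced by a *Frt-Stop-Frt* cassette, a Tomato reporter and the tamoxifen-activated recombinase FlpERT2. The cells of both libraries thus lack p53. Cre came from an adenovirus with a *CMV* promoter, which is not restricted to a cell type, and whether the line is a single clone is not given in the sources used here. 4-Hydroxytamoxifen (4-OHT) removes the cassette and turns KPR- into KPRrestored cells. The labels give the genotypes as RUNX3 -/- and RUNX3 -/+, the times as 0 h and 16 h, and 1 μM 4-OHT for both. Whether the KPR- library, labelled 0 h, was treated with 4-OHT cannot be told from these labels. Time in culture, any difference in 4-OHT and *Runx3* restoration cannot be told apart here.

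NF-κB works as a dimer of Rel proteins that waits in the cytoplasm until a signal such as TNF or interleukin-1 releases it. In the canonical route, the IKK complex marks IκB proteins for destruction and dimers such as p50:RelA enter the nucleus. In the noncanonical route, the kinase NIK drives processing of p100, the product of *Nfkb2*, to p52, which acts with RelB. NF-κB switches on genes of its own inhibitors and subunits, which closes feedback loops, and it is known for inflammatory and survival signalling in K-Ras-driven lung tumours.

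The values are FPKM (fragments scaled to transcript length and depth), with totals of 521340 in KPR- and 523647 in KPRrestored. The steps of low values gave a fitted depth of about 21.8 M and 22.3 M fragments. *Runx3* had 0.348 FPKM in KPR- (about 28 fragments) and 0.349 FPKM in KPRrestored (about 29 fragments). The log2 difference was 0.0074, with an interval of -0.78 to 0.82 that covers counting error only. No rise of total *Runx3* RNA was seen, and one within these limits was not detectable. The 2 values do not separate transcripts of the restored allele from others, so by themselves they do not check the labels. Directions below are those of the library labelled KPRrestored. The epithelial markers *Epcam*, *Cdh1*, *Krt8*, *Krt18* and *Krt19* lay between 91.6 and 1931 FPKM, whereas the surfactant genes *Sftpc* and *Sftpb* and the club cell gene *Scgb1a1* were listed at 0 in both libraries and *Nkx2-1* had 0.0444 and 0.0216 FPKM. The ciliated cell factor *Foxj1* had 2.78 and 0.656 FPKM. Among leukocyte markers, *Adgre1*, *Cd3e* and *Lyz2* were listed at 0 in both libraries, *Ptprc* had 0 and 0.00892 FPKM and *Itgam* 0.0409 and 0 FPKM. *Cd68* had 3.08 and 6.78 FPKM and *Csf1r* 2.68 and 1.19 FPKM, and the markers named here summed to 5.81 FPKM in KPR- and 7.98 FPKM in KPRrestored. The 6 fibroblast markers summed to 12.7 and 5.35 FPKM and the 4 endothelial markers to 1.16 and 2.22 FPKM. Of the fibroblast markers, *Col1a1* had 12.2 and 4.21 FPKM, *Dcn* 0.173 and 0.742 FPKM, *Pdgfra* 0.273 and 0.363 FPKM, *Col1a2* and *Pdgfrb* under 0.05 FPKM, and *Thy1* was listed at 0 in both libraries. Of the endothelial markers, *Kdr* had 1.10 and 2.05 FPKM, *Pecam1* 0.0601 and 0.0292 FPKM, *Cdh5* 0 and 0.141 FPKM, and *Tek* was listed at 0 in both. The part of these marker differences in the values below was not tested. In bulk RNA, fewer cells with a transcript and less of it per cell cannot be told apart.

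Start-site sequences are shown because NF-κB acts through κB elements in DNA and several of these genes are known targets of their own product. RefSeq windows on GRCm38.p6, of 250 bases before to 50 bases after a start, were at hand for 7 of the 10 genes, in 10 windows. No window was used for *Nfkb1*, *Relb* and *Nfkbiz*. The κB consensus of 10 bases was matched on either strand in windows of *Nfkb2*, *Rel*, *Nfkbia*, *Nfkbie* and *Tnfaip3*, and 8.46% of 32851 promoter windows hold a match. That share is per window and not per gene, and *Nfkb2* and *Tnfaip3* have more than a single window. For each of these genes a single line is printed. A further match of *Tnfaip3* and the matches in the other windows of *Nfkb2* are not shown. The following lines give 60 bases of the sense strand, 5′ to 3′, ending before or at the base next to the start. Bases of κB matches are in capitals.
*Nfkb2*, chr19:46304677-46304736, plus strand: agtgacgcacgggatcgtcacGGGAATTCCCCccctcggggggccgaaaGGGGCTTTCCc
*Nfkbia*, chr12:55492648-55492707, minus strand: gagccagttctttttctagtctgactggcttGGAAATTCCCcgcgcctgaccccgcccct
*Tnfaip3*, chr10:19015411-19015470, minus strand: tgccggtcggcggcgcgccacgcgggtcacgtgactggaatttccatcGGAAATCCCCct
*Rel*, chr11:23771027-23771086, minus strand: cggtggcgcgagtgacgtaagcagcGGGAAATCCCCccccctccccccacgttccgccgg
*Nfkbie*, chr17:45555569-45555628, plus strand: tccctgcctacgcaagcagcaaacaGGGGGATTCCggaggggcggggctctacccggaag
The runs of 11 capitals in *Nfkb2* and *Rel* are 2 overlapping matches each.

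Of the genes that were higher in the library labelled KPRrestored, *Rela* and *Nfkbib* had a window and it held no κB match. Their last 60 bases before the start are given for comparison, all in lower case.
*Rela*, chr19:5637481-5637540, plus strand: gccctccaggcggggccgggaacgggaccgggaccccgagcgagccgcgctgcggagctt
*Nfkbib*, chr7:28766645-28766704, minus strand: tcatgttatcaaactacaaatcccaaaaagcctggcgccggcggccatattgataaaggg
The RUNX core letters TGTGGT or TGCGGT, on either strand, occurred in 1 of the 7 genes, *Rel*. Of all windows, 22.4% hold such letters, a share per window, whereas the 7 genes have 10 windows. A match is a run of letters and not a measured site.

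Of the 10 genes, 3 were higher by 0.5 or more on the log2 scale in the library labelled KPRrestored: *Relb*, *Nfkbib* and *Rela*. Such a difference was found for 12.1% of the 11231 genes that averaged 1 FPKM or more over both libraries (expressed genes). None of the 10 was lower by as much, as 9.29% of expressed genes were. The difference of a gene is log2(FPKM + 0.005) in KPRrestored minus that in KPR-. The median over the 10 genes was 0.17, beside 0.0086 over the 11231 genes, whose quartiles were -0.23 and 0.27. In all, 8 of the 10 differences lay above 0, among them *Nfkb1* (0.036) and *Nfkbiz* (0.027), which were close to it. With the libraries scaled to the same upper quartile, *Nfkbiz* stood at -0.0071. The share of all expressed genes above 0 was not computed, so the count of 8 has no such share beside it. The smallest of the 3 past the threshold was 0.52 (*Rela*) and the largest under it was 0.38 (*Nfkb2*). Intervals below are exact 95% Clopper-Pearson limits of the log2 ratio of fragments and cover counting error only. They excluded 0 for 6 of the 10 genes, as they did for 67.2% of 11135 expressed genes with estimated fragments, so at this depth an interval that excludes 0 is common.

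**Figure D1:**
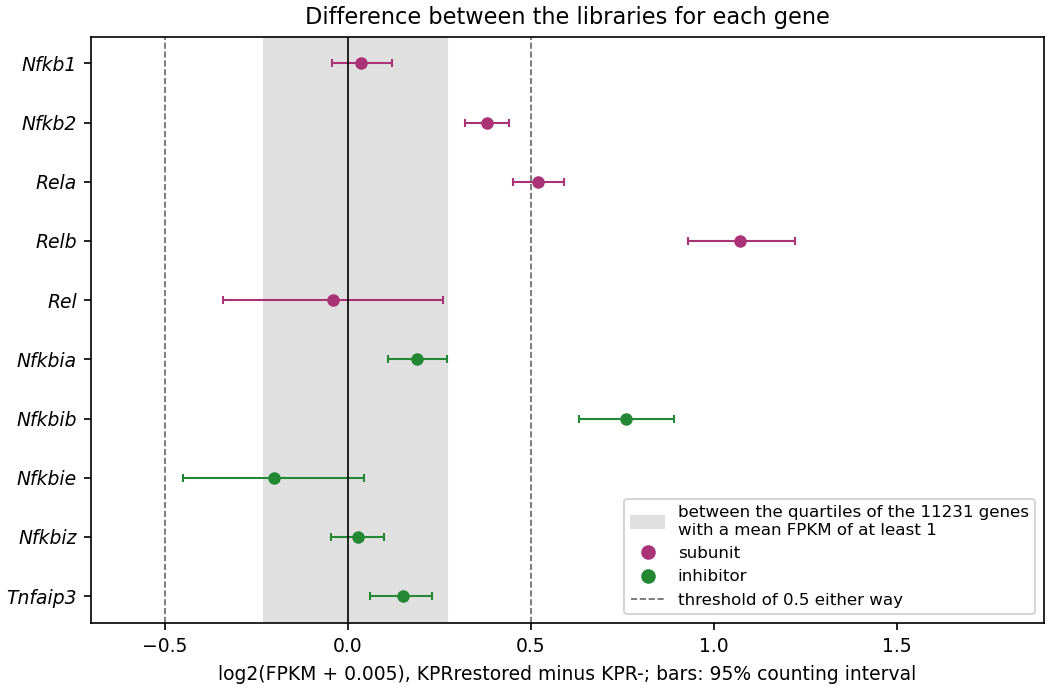
Difference of each gene in log2(FPKM + 0.005), KPRrestored minus KPR- (x axis), with 95% counting intervals as bars, subunits in purple and inhibitors in green, and the range between the quartiles of 11231 expressed genes in grey. *Relb*, *Nfkbib* and *Rela* lie right of the dashed line at 0.5, and the other 7 genes lie between the dashed lines.

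Among the subunits, the RelA and RelB transcripts were higher, those of p105 and c-Rel were close in both libraries, and that of p100 lay in between. *Relb* encodes RelB, the partner of p52 in the noncanonical route. It is annotated on GRCm38 at chr7:19606217-19629438 (minus strand). Its level was 13.0 FPKM in KPR- and 27.3 FPKM in KPRrestored, from about 566 and 1219 fragments, which is 2.10-fold. The log2 difference of 1.07 (interval 0.93 to 1.22) was the largest of the 10 genes and was exceeded by 282 of the 11231 expressed genes. With the shortest coding transcript of 727 bases in place of 2209 bases, the interval was 0.78 to 1.36.

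*Rela* encodes RelA (p65), the main transactivating subunit of the canonical route, and is found at chr19:5637483-5648130 (plus strand). Its level was 46.2 FPKM in KPR- and 66.3 FPKM in KPRrestored, from about 2527 and 3706 fragments, a difference of 0.52 (interval 0.45 to 0.59). The interval spans the threshold of 0.5, so counting error alone could place *Rela* on either side of it. With the libraries scaled to the same upper quartile its difference was 0.49, and 2 of the 10 genes were past the threshold.

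*Nfkb2* encodes p100, which is both an IκB-like inhibitor and the precursor of p52. The gene (chr19:46304320-46312385, plus strand) had 65.4 FPKM in KPR- and 85.3 FPKM in KPRrestored, a difference of 0.38 (interval 0.32 to 0.44) that stayed under the threshold. On the opposite strand, its annotated exons share 531 bases with a long noncoding RNA gene that was not analysed here and 299 bases with *Psd*, which had 1.55 and 1.42 FPKM.

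*Nfkb1* encodes p105, the precursor of p50, and is found at chr3:135584655-135691547 (minus strand). It had 29.6 FPKM in KPR- and 30.3 FPKM in KPRrestored, and its difference of 0.036 had an interval of -0.043 to 0.12. *Rel* encodes c-Rel, a subunit known mainly from lymphoid cells, and is found at chr11:23736847-23770970 (minus strand). It had 1.15 FPKM in KPR- and 1.12 FPKM in KPRrestored, the lowest level of the 10 genes in both libraries. With about 183 and 182 fragments, its difference of -0.041 had an interval of -0.34 to 0.26, so a larger change within these limits was not detectable at this depth.

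**Figure D2:**
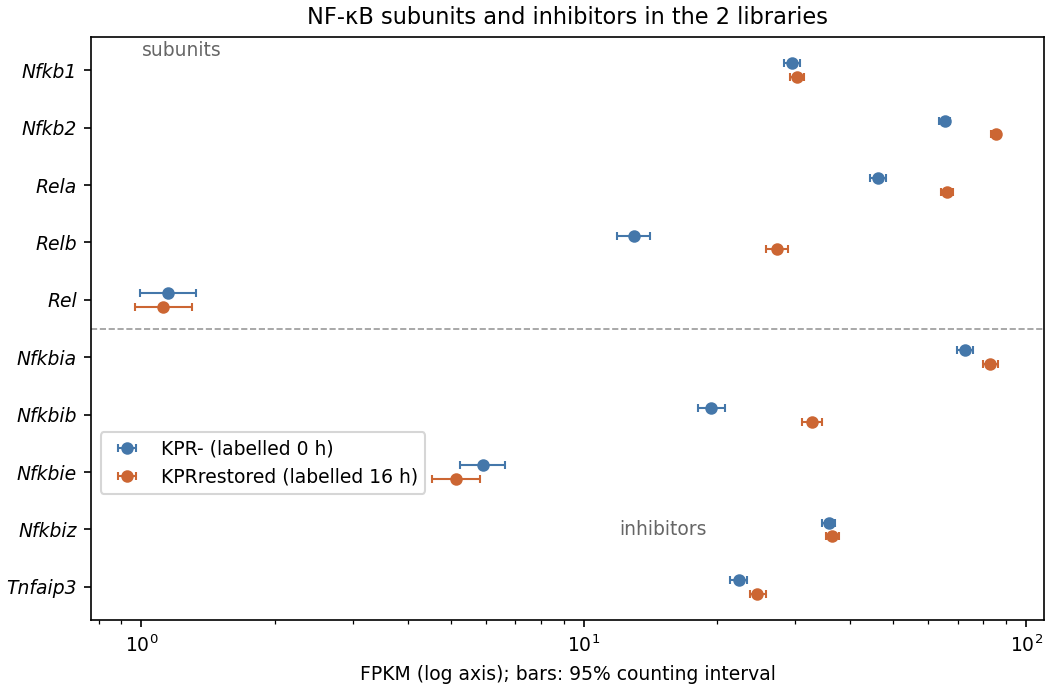
Level of each gene in FPKM (log axis) in the KPR- library (blue, labelled 0 h) and the KPRrestored library (orange, labelled 16 h), 1 library each, with 95% counting intervals as bars. The levels run from about 1 FPKM for *Rel* to 85.3 FPKM for *Nfkb2*, and the pairs of points stand farthest apart for *Relb* (13.0 and 27.3 FPKM) and *Nfkbib* (19.4 and 32.8 FPKM).

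Among the inhibitors, *Nfkbib* stood apart from the other 4. *Nfkbib* encodes IκBβ, a classical IκB that holds dimers in the cytoplasm, and is found at chr7:28758251-28767512 (minus strand). Its level was 19.4 FPKM in KPR- and 32.8 FPKM in KPRrestored, from about 785 and 1357 fragments. The difference of 0.76 (interval 0.63 to 0.89) was exceeded by 623 of the 11231 expressed genes. With the shortest coding transcript of 572 bases in place of 2061 bases, the interval was 0.46 to 1.05, which spans the threshold of 0.5. The exons of *Nfkbib* share 314 bases with *Ccer2*, which was not analysed here, and 42 bases with *Sirt2*, both on the opposite strand. *Sirt2* had 22.6 FPKM in KPR- and 36.2 FPKM in KPRrestored, a difference of 0.68. The library kit keeps strand, but whether the counting used it is not given in the sources used here, and the part of the overlap in the *Nfkbib* values was not tested.

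*Nfkbia* encodes IκBα, the inhibitor that NF-κB induces within its fastest feedback loop. It is found at chr12:55489410-55492647 (minus strand), and its 72.8 FPKM made it the most abundant of the 10 transcripts in KPR-. It had 83.0 FPKM in KPRrestored, a difference of 0.19 (interval 0.11 to 0.27). *Tnfaip3* encodes A20, a ubiquitin-editing enzyme that shuts off signalling upstream of IKK, and is found at chr10:19000910-19015657 (minus strand). It had 22.4 FPKM in KPR- and 24.7 FPKM in KPRrestored, a difference of 0.15. Its interval was 0.060 to 0.23 with the longest transcript and -0.22 to 0.51 with the shortest coding one, which reached across 0. Both of these feedback inhibitors lay between the quartiles of expressed genes.

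*Nfkbiz* encodes IκBζ, a nuclear cofactor that directs NF-κB to a subset of its targets, and is found at chr16:55811375-55838899 (minus strand). It had 35.8 FPKM in KPR- and 36.4 FPKM in KPRrestored, a difference of 0.027 (interval -0.045 to 0.099). *Nfkbie* encodes IκBε, the third classical IκB, and is found at chr17:45555703-45563169 (plus strand). It had 5.93 FPKM in KPR- and 5.15 FPKM in KPRrestored, a difference of -0.20 (interval -0.45 to 0.045) that was the lowest of the 10.

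FPKM is scaled to transcript length, so levels can be set side by side between genes, within the limits of the transcript lengths the authors used. In KPR- the order was *Nfkbia*, *Nfkb2*, *Rela*, *Nfkbiz*, *Nfkb1*, *Tnfaip3*, *Nfkbib*, *Relb*, *Nfkbie* and *Rel*, and the counting interval of no gene reached that of the next. In KPRrestored the order was *Nfkb2*, *Nfkbia*, *Rela*, *Nfkbiz*, *Nfkbib*, *Nfkb1*, *Relb*, *Tnfaip3*, *Nfkbie* and *Rel*. There the intervals of *Nfkb2* (83.1 to 87.5 FPKM) and *Nfkbia* (79.8 to 86.3 FPKM) overlapped, as did those of *Nfkbib* (31.1 to 34.6 FPKM) and *Nfkb1* (29.2 to 31.5 FPKM). *Relb* had a level above 49.0% of expressed genes in KPR- and above 70.1% in KPRrestored. *Nfkbib* went from 61.1% to 75.0% on the same scale, while *Nfkb1* stood at 72.6% and 72.7%.

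The transcripts of the 5 subunits summed to 155 FPKM in KPR- and 210.4 FPKM in KPRrestored. *Nfkb2* held the largest share in both libraries, with 42.1% and 40.5%, followed by *Rela* with 29.7% and 31.5%. The share of *Relb* was 8.36% in KPR- and 13.0% in KPRrestored, and that of *Nfkb1* was 19.0% and 14.4%. *Rel* held 0.743% and 0.533%. *Relb* stood at 13.0 FPKM beside 29.6 FPKM of *Nfkb1* in KPR-, and at 27.3 beside 30.3 FPKM in KPRrestored. RelA, RelB and c-Rel carry the transactivation domains, and their transcripts together stood at 0.635 of the sum of *Nfkb1* and *Nfkb2* in KPR- and at 0.819 in KPRrestored.

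**Figure D3:**
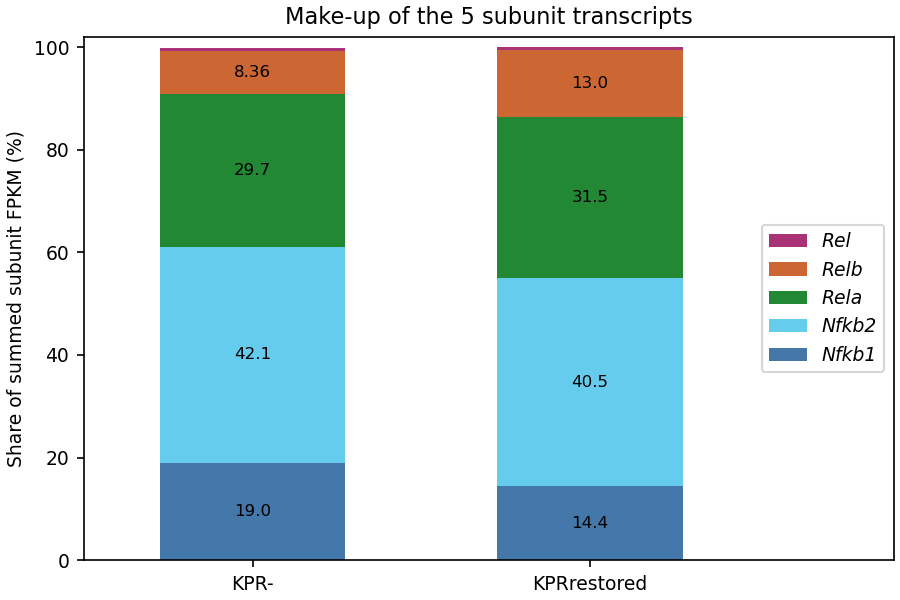
Share of each subunit gene in the summed FPKM of the 5 subunits (y axis, percent) in the KPR- and the KPRrestored library, 1 library each. *Relb* takes 8.36% of the left and 13.0% of the right bar, *Nfkb1* 19.0% and 14.4%, and the sliver of *Rel* at the top is under 1% in both.

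Within the pairs that form the known dimers, *Rela* stood at 1.56 times *Nfkb1* in KPR- and at 2.18 times in KPRrestored. *Relb* stood at 0.199 times *Nfkb2* in KPR- and at 0.320 times in KPRrestored. The 3 classical IκB transcripts summed to 98.1 FPKM and 121 FPKM. *Nfkbia* made up 74.1% of that sum in KPR- and 68.6% in KPRrestored, *Nfkbib* 19.8% and 27.1%, and *Nfkbie* 6.04% and 4.26%. The ratio of summed subunits to summed classical IκB was 1.58 in KPR- and 1.74 in KPRrestored, a log2 difference of 0.13. These ratios concern transcripts and have no error from replicates.

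The other genes of the pathway were grouped into 7 lists by role. Of 118 genes listed, 92 were expressed by that measure, and 15 of these (16.3%) were higher and 10 (10.9%) lower by 0.5 or more in the library labelled KPRrestored, beside 12.1% and 9.29% of all expressed genes. Their median difference was 0.072.

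**Figure D4:**
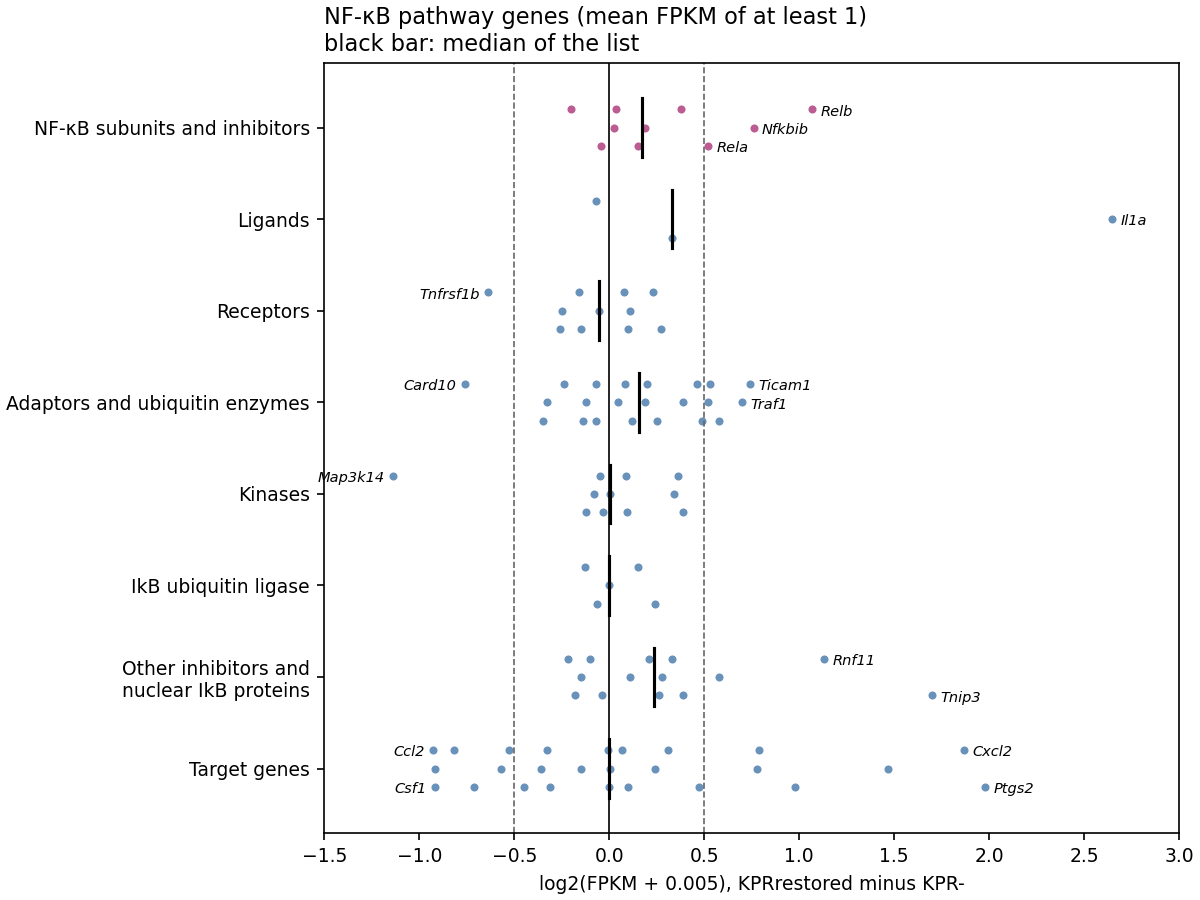
Difference of each gene in log2(FPKM + 0.005), KPRrestored minus KPR- (x axis), by part of the NF-κB pathway (rows), for expressed genes, with the median of each row as a black bar and dashed lines at 0.5 either way. *Il1a* lies farthest right at 2.65 and *Map3k14* farthest left at -1.14, and the row of target genes extends to both sides.

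Of 13 ligands that activate the pathway, 3 were expressed by the same measure. *Il1a*, which encodes the alarm cytokine interleukin-1α, had 1.37 FPKM in KPR- and 8.66 FPKM in KPRrestored, from about 53 and 341 fragments, a difference of 2.65 (interval 2.23 to 3.10). *Il33*, an alarm cytokine of the same family, had 51.8 and 65.3 FPKM, and *Tnfsf12*, which encodes TWEAK, had 9.67 and 9.20 FPKM. *Tnf*, the textbook inducer, was at 0.380 and 0.246 FPKM with some 12 and 8 fragments, and *Il1b* had about 1 and 2 fragments. *Tnf* and *Il1b* were named after their values were seen.

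Of the 11 expressed receptors of a list of 20, 0 were higher and 1 was lower by 0.5 or more. The shares of all expressed genes were 12.1% and 9.29%. *Tnfrsf1b*, which encodes TNF receptor 2, had 13.9 FPKM in KPR- and 8.92 FPKM in KPRrestored, a difference of -0.64 (interval -0.78 to -0.51). *Tnfrsf1a*, which encodes the widely expressed TNF receptor 1, had 57.1 and 66.9 FPKM, and *Ltbr*, the lymphotoxin-β receptor that feeds the noncanonical route, had 60.2 and 72.5 FPKM. *Il1rap*, the shared subunit of interleukin-1 family receptors, had 1.95 and 1.62 FPKM.

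All 22 adaptors and ubiquitin enzymes between the receptors and IKK were expressed. Of these, 5 were higher and 1 was lower, beside 12.1% and 9.29% of all expressed genes. *Ticam1*, which encodes the Toll-like receptor adaptor TRIF, had 3.26 and 5.44 FPKM, a difference of 0.74. *Traf1*, an adaptor of TNF receptors and itself a known NF-κB target, had 5.12 and 8.29 FPKM, a difference of 0.70. *Card10*, a scaffold that joins receptors to the BCL10-MALT1 complex, had 39.5 and 23.3 FPKM, a difference of -0.76. *Ube2v1*, a partner in lysine-63 ubiquitin chain formation, had 111 and 86.9 FPKM, under the threshold.

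Of the 11 expressed kinases, 0 were higher and 1 was lower, beside 12.1% and 9.29% of all expressed genes. *Map3k14* encodes NIK, the kinase that opens the noncanonical route, and had 7.45 FPKM in KPR- and 3.37 FPKM in KPRrestored, from about 656 and 303 fragments. Its difference was -1.14 (interval -1.35 to -0.95). The IKK genes stayed under the threshold. *Chuk* (IKKα) had 22.4 and 29.2 FPKM, *Ikbkb* (IKKβ) 16.5 and 16.6 FPKM and *Ikbkg* (NEMO) 9.69 and 12.3 FPKM. *Ikbke* and *Tbk1*, 2 IKK-related kinases, had differences of 0.36 and -0.12. *Ikbkb* and *Ikbkg* were named after their values were seen. None of the 5 genes of the ubiquitin ligase that marks IκB for destruction reached the threshold, beside the same 12.1% and 9.29% of all expressed genes. So few genes do not set the ligase apart from those shares. The differences ran from -0.13 for *Skp1a* and -0.066 for *Cul1* to 0.15 for *Btrc* and 0.24 for *Fbxw11*.

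Of the 14 expressed genes among other inhibitors and nuclear IκB proteins, 3 were higher and 0 were lower. The shares of all expressed genes were 12.1% and 9.29%. The median of the 14 was 0.24. *Tnip3*, which encodes an A20-binding protein, had 5.97 FPKM in KPR- and 19.4 FPKM in KPRrestored, a difference of 1.70 (interval 1.55 to 1.85). *Rnf11*, a member of the A20 ubiquitin-editing complex, had 20.1 and 44.1 FPKM, a difference of 1.13 (interval 1.05 to 1.22). *Itch*, another member of that complex, had 15.1 and 12.9 FPKM, and the deubiquitinase gene *Cyld* had 7.36 and 6.51 FPKM, both under the threshold. A20 itself (*Tnfaip3*) differed by 0.15.

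Known target genes of NF-κB lay on both sides of 0. Of the 26 expressed members of a list of 31, 6 were higher and 7 were lower by 0.5 or more. Among all expressed genes, 12.1% were higher and 9.29% lower by as much. The median of the 26 was -0.0031. *Ptgs2*, which encodes the prostaglandin enzyme COX-2, had 41.4 FPKM in KPR- and 163 FPKM in KPRrestored, a difference of 1.98 (interval 1.93 to 2.03). *Cxcl2*, a neutrophil-attracting chemokine, had 6.31 and 23.1 FPKM, a difference of 1.87 (interval 1.58 to 2.17). *Ccl2*, a monocyte-attracting chemokine, had 334 and 176 FPKM, and *Csf1*, the macrophage growth factor, had 74.7 and 39.4 FPKM, with differences of -0.93 and -0.92. The target genes are also under the control of other factors, and their part in these values was not tested.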

How the data were processed

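Poly(A) RNA was sequenced from KPR- and KPRrestored cells, 1 library each. The authors prepared directional libraries, removed adapters and bases of low quality, aligned read pairs to mm10 with TopHat and deposited FPKM values from Cufflinks. Their methods also name a geometric normalization of read counts with edgeR, and do not state whether it applies to the deposited values. Strand setting and annotation of the counting are not given in the sources used here. Groups were taken from the sample descriptions.

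Differences were log2(FPKM + 0.005), KPRrestored minus KPR-, with a threshold of 0.5 and, for shares of all genes, a mean FPKM of at least 1. The pseudocount understates changes of low genes. Depth was fitted to the steps of low FPKM values of genes with 1 annotated length (GENCODE M21, GRCm38), with a mean fragment length of 210 bases. Of 835 and 832 low values, 80.1% and 80.4% lay within 0.1 of a whole fragment. Fragments per gene used the longest coding transcript with a RefSeq counterpart. Of the symbols, 22148 matched directly and 659 by synonym. Intervals cover counting error only. With 1 library per group no p-value was computed. Depth fit and intervals were tested on simulated data.

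The members and lists were chosen with earlier results of these data known. 1 leukocyte marker is not reported here. Named genes were the 10 members and, in each list, the 2 largest differences either way. Alternatives were other pseudocounts, filters, scalings, a threshold of 1 and the shortest transcript. Promoter windows came from RefSeq (GRCm38.p6). Scripts ran in Python 3.11.15 with scipy 1.17.1, pandas 2.3.3, matplotlib 3.10.9 and numpy 2.4.6.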

Additional observations from a re-analysis of the deposited data

How the results depend on the processing

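No paired analysis was possible because each group holds 1 library, and no library could be left out. Under 2 other pseudocounts and 3 other scalings of the libraries, all 50 recomputed differences of the 10 genes stayed within their counting intervals, with a largest shift of 0.050. With the same upper quartile in both libraries, *Rela* fell under the threshold at 0.49, which left 2 of the 10 genes higher, beside 10.7% of expressed genes higher and 10.5% lower. With a threshold of 1, only *Relb* of the 10 genes was higher (1 gene), 6 pathway genes were higher and 1 was lower, and 2.89% and 1.38% of all expressed genes were higher and lower. Without a filter on low values, 27 of 118 pathway genes were higher and 17 lower, beside 13.8% and 12.9% of all genes. Counts of pathway genes under the other alternatives stayed within 1.5 times those reported. Counting intervals based on the longest transcripts were widest for *Rel* and *Nfkbie*, and with the shortest transcripts *Tnfaip3* had a wider one (-0.22 to 0.51). Without replicates the variation between cultures is unknown for all genes.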

Other observations

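The genes next to the NF-κB genes were examined after the differences were known. Of 26 expressed genes within 50 kb of a member, 2 were higher by 0.5 or more in the library labelled KPRrestored and 2 were lower. The shares of all expressed genes were 12.1% higher and 9.29% lower. The median difference of the 26 was -0.11. The 6 expressed neighbours of *Relb* had differences from -0.32 to 0.071, among them *Clptm1* (74.2 and 63.4 FPKM), none of them past the threshold. Of the 4 neighbours of *Rela*, *Sipa1*, which encodes a Rap GTPase-activating protein, had a difference of -0.72, and *Kat5* had one of 0.32. Of the 5 neighbours of *Nfkbib*, *Sirt2*, a deacetylase gene that overlaps it head to head, had 0.68, and the other 4 lay under the threshold. *Relb* and *Nfkbib* are both on chromosome 7, where 811 expressed genes had a median difference of 0.080, and *Rela* and *Nfkb2* are both on chromosome 19, where 392 expressed genes had a median of 0.0084.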
